A study of Mus musculus with 8 samples.

Results

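The genes described here are 8 of the mouse MS4A family: Ms4a4a, Ms4a4c, Ms4a4d, Ms4a6b, Ms4a6c, Ms4a6d, Ms4a7 and Ms4a8a. They were selected on signals of these same arrays, and since the sources do not give the comparison used, HFD against chow is treated as the one that chose them. A probe set was counted for a gene where the array annotation gave that symbol and no other. By this rule 13 of the 45101 probe sets of the array belonged to 7 of the 8 genes, and no probe set carried the symbol Ms4a4a, which is therefore not analysed here. All 7 measured genes had a probe set bright enough to enter the test over 11232 genes. The lowest scaled signal of those probe sets on any array was 56.5 (Ms4a4c), above the brightness threshold of 40.45, so none passed only through the group in which it was high.

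RNA came from epididymal fat, the visceral depot beside the testis, of male C57BL/6J mice that entered the study at 6 weeks of age. Each of 8 mice gave 1 array, and there were 4 groups of 2 mice. For 24 weeks the feed drew 10% of its calories from fat in the chow group and 30% in the others (high-fat diet, HFD). Of the mice on HFD, 1 group then received telmisartan and 1 candesartan, each at about 3 mg/kg/day in drinking water, over a further 5 weeks in which the HFD group had no drug. For the chow group these further weeks are not stated, so its age at sampling relative to the HFD groups is unknown here. Both drugs block the angiotensin II type 1 receptor, and telmisartan is also known as a partial activator of the nuclear receptor PPARgamma. No transgene or deletion was involved, and every mouse was of the same inbred strain. Values are linear signals scaled to a common trimmed mean, and differences are on the log2 scale of those signals.

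MS4A proteins cross the cell membrane several times and mostly sit in lymphoid and myeloid cells, where they organise the signalling and the traffic of neighbouring receptors. The founding members are CD20, encoded by Ms4a1 on B cells, and the beta chain of the high-affinity IgE receptor, encoded by Ms4a2 on mast cells. Macrophages use a separate set, of which Ms4a7 marks mature tissue macrophages, Ms4a6c is typical of monocytes and Ms4a8a has been described in alternatively activated and tumour-associated macrophages. In obese visceral fat macrophages accumulate around dying fat cells. Arrays of whole tissue do not show which cells the signal of these genes came from.

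The genes lie side by side on mouse chromosome 19. In the RefSeq gene table (GRCm38.p6) the stretch from Ms4a7 to Ms4a6d holds 9 protein-coding genes, of which 8 are MS4A genes and 7 are genes of this set, with the T cell gene Ms4a4b among them. Ms4a8a stands apart from that run, with 7 other MS4A genes, Ms4a1 among them, between it and Ms4a7. The upstream sequences below are shown because Ms4a6c and Ms4a6b were the members with the most alike signals, while Ms4a7 and Ms4a8a moved furthest in opposite directions. Each is the 250 bases before the annotated start site, taken from RefSeq on GRCm38.p6 and read 5′ to 3′ on the gene's strand. In the first pair, capitals mark runs of at least 15 bases found in both windows.
Ms4a6c (chr19:11469118-11469367, plus strand): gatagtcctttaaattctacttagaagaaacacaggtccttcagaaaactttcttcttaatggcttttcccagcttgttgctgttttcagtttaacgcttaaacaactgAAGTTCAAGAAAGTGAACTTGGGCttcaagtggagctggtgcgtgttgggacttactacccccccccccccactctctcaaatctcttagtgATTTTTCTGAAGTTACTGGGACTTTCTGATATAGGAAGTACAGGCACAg
Ms4a6b (chr19:11518309-11518558, plus strand): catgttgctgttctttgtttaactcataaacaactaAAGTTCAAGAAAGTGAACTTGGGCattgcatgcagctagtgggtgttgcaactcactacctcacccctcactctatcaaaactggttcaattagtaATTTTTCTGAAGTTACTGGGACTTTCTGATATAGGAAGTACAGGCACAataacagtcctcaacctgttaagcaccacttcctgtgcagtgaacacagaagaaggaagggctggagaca

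In these windows 72 of the 250 bases of each gene lie in shared runs, and the longest run is 48 bases. Among 170 pairs of MS4A windows from different genes the next longest run was 20 bases, between Ms4a4c and Ms4a4b, and the median was 8. Aligned over their whole length, the windows of Ms4a6c and Ms4a6b were 47.4% identical, below the median of the pairs (49.3%). This figure counts gaps as differences. The shared runs lie at different distances from the start sites in the windows printed, so it can miss likeness between shifted stretches. Those of Ms4a4c and Ms4a4b were 70.8% identical. In the second pair, capitals mark matches to the motifs searched on both strands. These were GAGGAAGT (bound by the myeloid factor PU.1), TGANTCA (AP-1), TTC and GAA with any 4 bases between them (STAT factors) and AGGTCA repeated after 1 base of any kind (a direct repeat bound by PPARgamma with its partner).
Ms4a7 (chr19:11336147-11336396, minus strand): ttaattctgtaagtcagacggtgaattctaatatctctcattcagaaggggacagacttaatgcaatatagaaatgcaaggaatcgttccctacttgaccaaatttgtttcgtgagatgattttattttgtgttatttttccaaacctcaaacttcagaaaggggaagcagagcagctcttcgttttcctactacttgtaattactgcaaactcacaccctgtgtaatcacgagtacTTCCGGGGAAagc
Ms4a8a (chr19:11081104-11081353, minus strand): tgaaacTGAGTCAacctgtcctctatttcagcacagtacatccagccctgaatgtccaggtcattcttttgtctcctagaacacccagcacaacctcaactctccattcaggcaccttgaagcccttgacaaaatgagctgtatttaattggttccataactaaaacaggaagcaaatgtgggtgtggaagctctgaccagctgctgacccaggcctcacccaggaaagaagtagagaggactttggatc

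The Ms4a7 window holds 1 STAT match, which starts 13 bases before the start site, and the Ms4a8a window 1 AP-1 match, 244 bases before it. Over the 8 windows of 7 members (Ms4a7 has a second annotated start, and Ms4a6d has no window) the counts were 2 windows with AP-1, 1 with STAT and 0 with either of the others. The other AP-1 window was that of the second Ms4a7 start, with its match 81 bases before that start, so both genes have an AP-1 match. Of all 32851 windows of that length, 6.75% hold the AP-1 letters, 5.85% the STAT letters, 2.44% the PU.1 letters and 0.0335% the direct repeat. No 2 motif matches overlapped in the windows printed. These matches are descriptions of letters and were not tested for binding.

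Before the members, some facts on the arrays bear on what follows. The adipocyte gene Adipoq was between 15423 and 18324 on every array. None of the 5 epididymis and testis markers on the array was bright enough to be tested (Lcn5 lay at the floor on every array). Their summed signal was 142.8 on chow array 1, 29.4 on chow array 2 and 32.5 to 69.4 on the other arrays. Any part of such tissue in the chow values was not tested. Macrophage genes were plain in every group: of 21 pan macrophage genes tested in HFD against chow, limma called 18 higher and 0 lower (median log2 difference 1.31), among them Adgre1 (2.04) and Cd68 (2.36). Of 14 lipid-associated macrophage genes 11 were called higher, Itgax (3.10) among them, and 0 lower. Of 12 resident macrophage genes 1 was called higher and 4 lower, Cd163 (−1.68) and Lyve1 (−1.52) among the lower, while Mrc1 (0.60) was not called. Over all genes, 5.15% were called higher and 2.95% lower in this comparison. The mean log2 signal of the pan macrophage genes, set to 0 for chow, was 1.45 and 1.45 on the HFD arrays and 1.29 and 1.49 with candesartan. The telmisartan pair stood apart, at 1.10 on array 1 and 1.84 on array 2. In a bulk tissue more cells of a type and more RNA per cell cannot be told apart.

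HFD against chow asks what the diet did to these genes. The members fell into 3 groups: Ms4a7, Ms4a6d and Ms4a6c rose, Ms4a8a fell, and Ms4a6b, Ms4a4c and Ms4a4d were not called. The 8 genes were proposed with results of these arrays known, so the values in this comparison are a description and carry no test of their own. In the fit over all genes limma called 4 of the 7 members, 3 higher and 1 lower, against a background of 8.09% of all genes called (5.15% higher and 2.95% lower), from which nothing is read here. The members' median log2 difference was 0.91, beside −0.01 over all genes. Arrays did not overlap for 5 of the 7, 4 higher and 1 lower, where 58.1% of all genes did not overlap (27.8% higher and 30.3% lower). The 4 calls rested on few arrays: 1 was left without chow array 1, without chow array 2 or without HFD array 1, and 0 without HFD array 2. Without either telmisartan array 5 members were called, Ms4a6b being the added one.

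**Figure D1:**
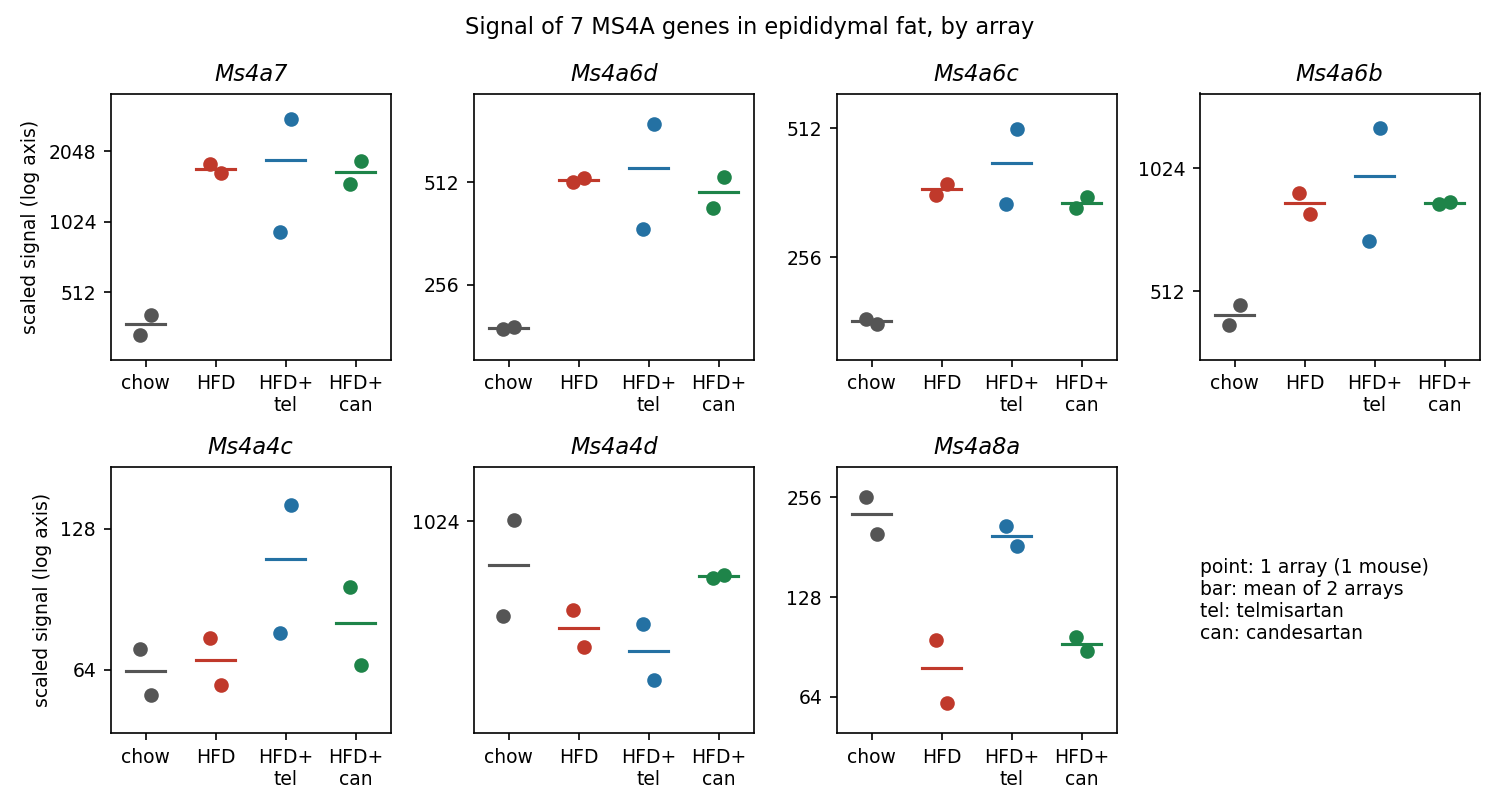
Scaled signal (log axis) of the brightest probe set of each of 7 MS4A genes on the 8 arrays, with points for single arrays and bars for the mean of 2. Ms4a7, Ms4a6d, Ms4a6c and Ms4a6b lie lowest on both chow arrays, whereas Ms4a8a is highest on the chow and telmisartan arrays, and both telmisartan points of Ms4a7 lie far apart, at 920 and 2818.

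Ms4a7, the marker of mature tissue macrophages, showed the largest rise of the set. Its signal was 337 and 409 on the chow arrays, 1804 and 1643 with HFD, 920 and 2818 with telmisartan and 1485 and 1864 with candesartan. Every array of the mice on HFD lay above both chow arrays, and the HFD mean was 462% of the chow mean, a log2 difference of 2.21. A dimmer second probe set of Ms4a7 gave 8.43 and 12.9 on chow and 45.4 and 46.6 with HFD (log2 difference 2.14), though 1 of its telmisartan arrays, at 1.53, lay below the signal floor of 6.70.

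Ms4a6d encodes a macrophage protein that works with the complement receptor VSIG4 to restrain the NLRP3 inflammasome. Its signal was 190 and 192 on chow, 511 and 525 with HFD, 373 and 756 with telmisartan and 429 and 530.1 with candesartan. The chow arrays were the lowest by a wide margin, and the log2 difference of HFD from chow was 1.44. A second probe set, 151 and 173 on chow and 399 and 411 with HFD, gave 1.32. The third probe set of this gene was at or near the floor, with 7 of 8 arrays under it, and carries no difference.

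The neighbours Ms4a6c and Ms4a6b moved less. Ms4a6c was 184 and 179 on chow and 358 and 380.4 with HFD, then 342 and 509 with telmisartan and 333 and 353 with candesartan. This is a doubling in HFD, at 203% of the chow mean, without overlap between any high-fat array and chow. Its second, dimmer probe set went from 14.6 and 18.6 to 34.6 and 50.5 (log2 difference 1.35). Ms4a6b was 423 and 474 on chow, 892 and 790.4 with HFD, 679 and 1282 with telmisartan and 838 and 848 with candesartan. These groups did not overlap with chow either, but the log2 difference of 0.91, close to the 1.02 of Ms4a6c, was not called in the fit over all genes. A second probe set of Ms4a6b, 52.7 and 82.9 on chow against 120.1 and 105 with HFD, gave 0.77. On it, 1 array of each drug group overlapped with chow, at 48.2 and 125 with telmisartan and 66.2 and 106 with candesartan, and the log2 differences from HFD were −0.53 and −0.42.

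Ms4a4c and Ms4a4d showed no call. Ms4a4c, a gene of monocytes and lymphocytes that interferon induces, was 71.1 and 56.5 on chow, 74.7 and 59.4 with HFD, 76.9 and 144 with telmisartan and 95.9 and 65.5 with candesartan. A dimmer probe set, too low to be tested, gave 28.9 and 19.7 on chow, 41.4 and 27.4 with HFD (log2 difference 0.50), 39.5 and 53.1 with telmisartan and 40.9 and 33.1 with candesartan. The chow and HFD arrays interleave in both, and the log2 difference of 0.07 turned to −0.022 with quantile normalization and −0.028 with median centring. Both probe sets of Ms4a4c carry marks of the array maker (_x and _s) for probes that may also match other transcripts, so its signal is uncertain among close relatives. Ms4a4d was 764 and 1027 on chow, 781 and 695 with HFD, 747 and 629 with telmisartan and 861 and 869.7 with candesartan. Chow array 1 lay below HFD array 1 for this gene, so the groups overlap, with a log2 difference of −0.27.

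Ms4a8a went the other way. Its signal was 256 and 199 on chow and 94.8 and 61.3 with HFD, so that the HFD mean (78.1 ± 23.7, SD, n = 2) was 34.3% of the chow mean (227 ± 40.7). It was 210 and 183 with telmisartan and 96.7 and 88.2 with candesartan. Of the telmisartan arrays, 1 thus lay between the chow arrays and 1 just below both, and both lay above all 4 arrays of the HFD and candesartan groups, which overlapped one another. The fall in HFD was −1.56 on the log2 scale, and it was called whichever array was left out except HFD array 2. Ms4a8a has a single probe set, so no second set of probes bears on these values.

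**Figure D2:**
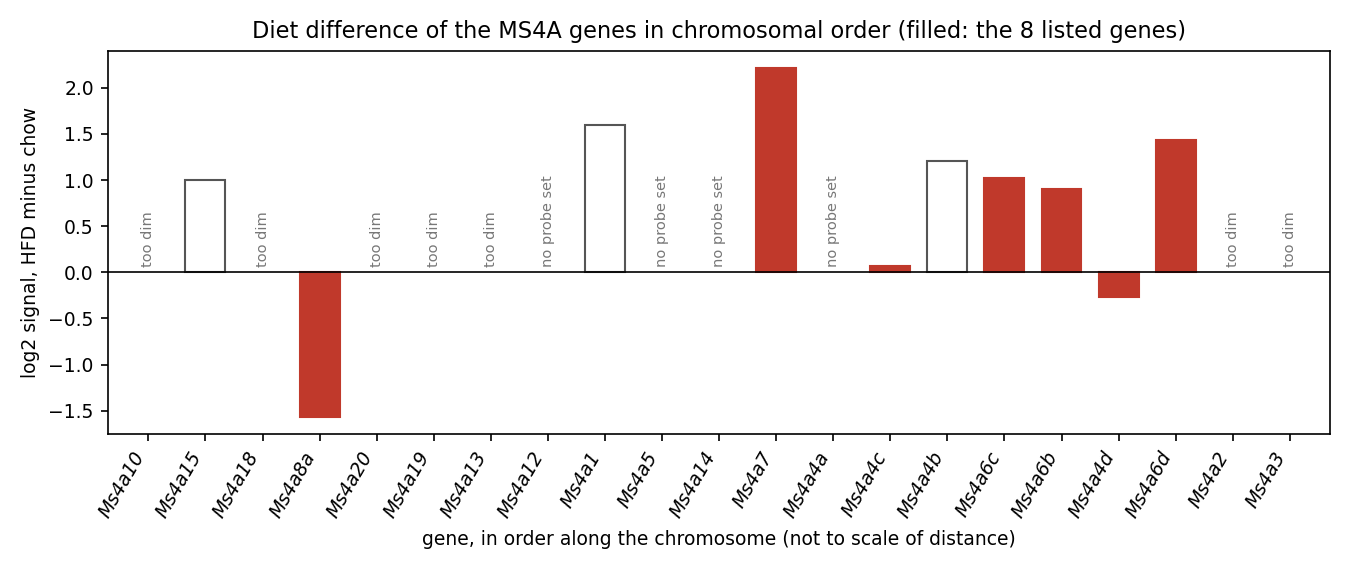
Log2 difference of HFD from chow for the MS4A genes in their order along the chromosome, with filled bars for the genes of this set and open bars for other MS4A genes, and words where a gene has no probe set or was too dim to be tested. The bar of Ms4a7 is the highest at 2.21, Ms4a8a at −1.56 is the lowest and stands outside the run from Ms4a7 to Ms4a6d, and Ms4a4d at −0.27 lies between Ms4a6b and Ms4a6d, which are positive.

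The order along the chromosome and the size of the diet difference did not run together. Within the run, Ms4a4d (−0.27) sits between Ms4a6b (0.91) and Ms4a6d (1.44), and Ms4a4c (0.07) sits 2 places from Ms4a7 (2.21). The position of Ms4a4a, the gene between those 2, has no value here.

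The members also differed in how far they went beyond macrophage genes at large. The log2 signal of each was set against the mean of the 21 pan macrophage genes on the same array, with the chow mean at 0. Such a ratio within an array shows unequal change only. Ms4a6d moved with the list: its relative level was −0.03 and 0.0022 on the HFD arrays, −0.13 and 0.14 with telmisartan and −0.12 and −0.02 with candesartan. Ms4a7 went beyond it, at 0.83 and 0.69 with HFD and 0.71 and 0.84 with candesartan, but at 0.21 and 1.08 with telmisartan. Ms4a6c (−0.43 ± 0.06, SD, n = 2) and Ms4a6b (−0.54 ± 0.13) rose less than the list in HFD. Ms4a4c (−1.38 ± 0.24), Ms4a4d (−1.72 ± 0.12) and Ms4a8a (−3.02 ± 0.45) were left far behind it.

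**Figure D3:**
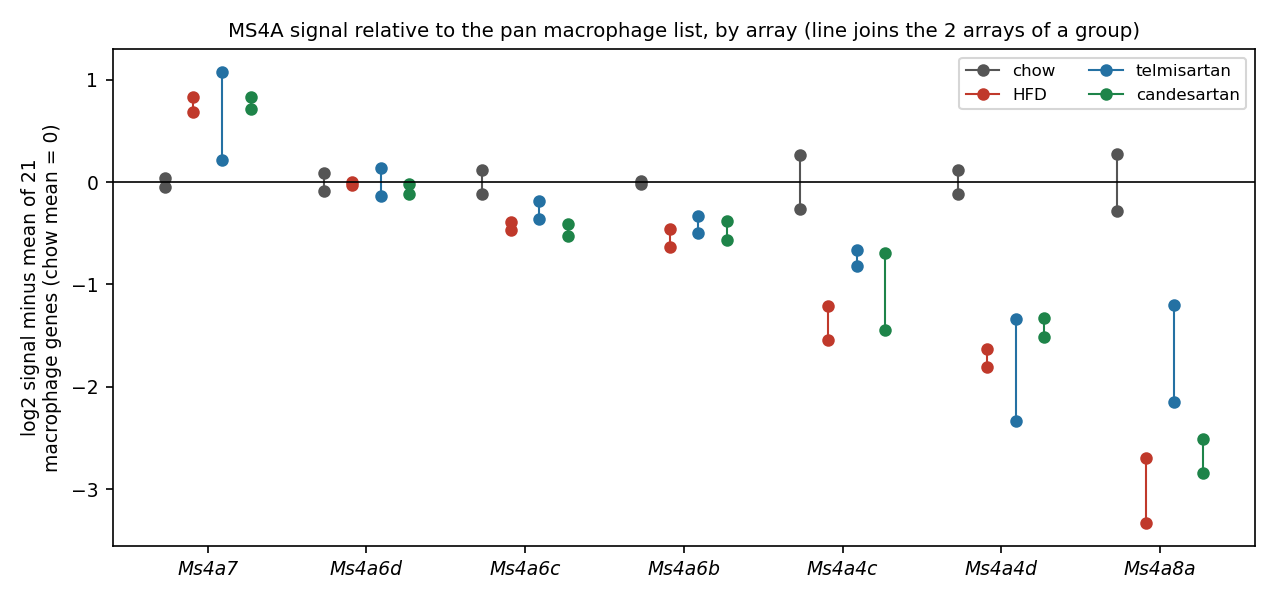
Log2 signal of 7 MS4A genes minus the mean of 21 pan macrophage genes on the same array, relative to the chow mean, with points for single arrays and lines joining the 2 arrays of a group. Ms4a6d stays near 0 in all groups, Ms4a7 lies above 0 on all 6 high-fat arrays, and Ms4a8a lies lowest with HFD and candesartan (Ms4a4d is lower with telmisartan), with its telmisartan arrays (−1.20 and −2.15) above those of HFD (−2.70 and −3.33).

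Profiles over all 8 arrays were compared by their root mean square difference in log2 units after each gene's own mean was removed, so that smaller is more alike. Among the members Ms4a6b and Ms4a6c were the closest pair (0.14), followed by Ms4a6c with Ms4a6d (0.21) and Ms4a6b with Ms4a6d (0.22). Ms4a7 and Ms4a8a were the furthest apart (1.57). Against the mean profiles of 3 macrophage lists, Ms4a6d lay 0.090 from the pan macrophage list. Ms4a7 lay nearer to the lipid-associated macrophage list (0.31, 14 genes such as Trem2 and Gpnmb) than to the pan macrophage list (0.39). Of these 3 lists, Ms4a8a and Ms4a4d lay nearest to the resident macrophage list (0.49 and 0.29, 12 genes such as Lyve1 and Cd163). Lists of other cell types were not compared in this way, so a nearer one may exist. These are descriptions without a test.

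Genes with only a clone or provisional name were left out of the search for the nearest genes. Over the other genes tested, the nearest to Ms4a7 were Cd83 (0.091), an immunoglobulin-family protein of activated antigen-presenting cells, Cd300ld (0.15) and Pik3r5 (0.15), a regulatory subunit of PI3-kinase gamma. Those of Ms4a6d were the Fc receptor gene Fcgr3 (0.0999), the ceramide kinase Cerk (0.10) and the leukocyte myosin Myo1g (0.11). Those of Ms4a6c were the complement gene C1qb (0.050), the peptidase Cndp2 (0.063) and Nrros (0.065), and those of Ms4a6b were Themis2 (0.080), the phosphatase Ptpn18 (0.094) and C1qc (0.096). Ms4a4c was nearest to Tap1 (0.15) and Psmb9 (0.15), which serve the processing of peptides for MHC class I, and to Zmym1 (0.15). Ms4a4d was nearest to Akap7 (0.040), Ubr3 (0.053) and Trappc6b (0.071). Of the 3 nearest genes of each member, none was itself a member.

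Of the genes searched, the one most like Ms4a8a was Retnla (0.23), which encodes the secreted protein FIZZ1 of alternatively activated macrophages. Ropn1l (0.30) and the aminoacylase Acy1 (0.32) followed. Retnla was 10882 and 11626 on chow, 4700 and 3004 with HFD, 8221 and 6351 with telmisartan and 4280 and 3217 with candesartan. For both genes the telmisartan mean stood between that of chow and those of the other high-fat groups. Ropn1l was 167 and 125 on chow, 79.7 and 76.8 with HFD, 145 and 148 with telmisartan and 83.9 and 77.6 with candesartan. The scavenger receptor gene Cd163, a marker of resident macrophages, showed 777 and 1291 on chow, 437 and 222 with HFD, 587 and 475 with telmisartan and 317 and 379 with candesartan. Lyve1, another resident marker, was 829 and 949 on chow and between 227 and 390.4 on all 6 high-fat arrays, with no separation of the telmisartan pair.

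**Figure D4:**
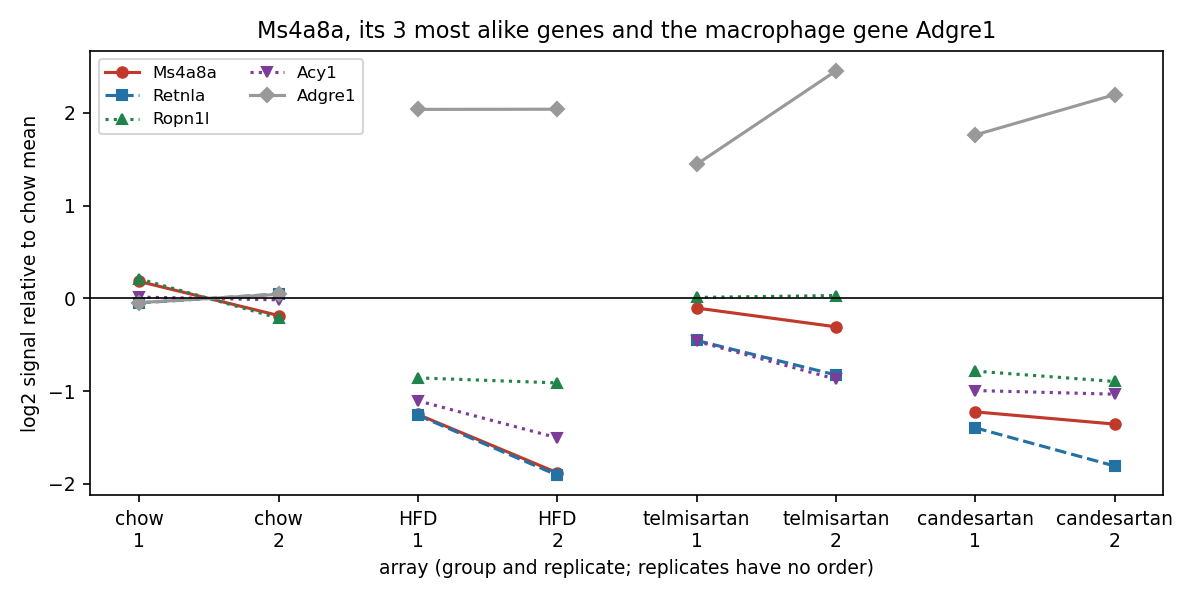
Log2 signal relative to the chow mean on each array for Ms4a8a, the 3 genes with the most alike profile (Retnla, Ropn1l, Acy1, clone and provisional names skipped) and the macrophage gene Adgre1, with lines joining the 2 arrays of a group. The first 4 genes lie below chow with HFD and candesartan and closer to it with telmisartan, whereas Adgre1 is higher than chow on all 6 high-fat arrays. The 3 genes were chosen for likeness on these same arrays, so the shared pattern follows from the choice.

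Telmisartan against HFD asks whether the drug changed these genes in obese fat. Ms4a8a was higher with telmisartan (196 ± 19.4, SD, n = 2) than with HFD (78.1 ± 23.7), 2.57-fold, with no overlap of arrays, but the difference did not pass the test over all genes. Its log2 difference was 1.36 (95% CI 0.79 to 1.93), with an unadjusted p of 0.000466 and an adjusted p of 0.766 by limma. By size it ranked 16 of 11232 genes. Over the alternative settings its log2 difference stayed between 1.05 and 1.67 and its adjusted p between 0.0887 and 0.999. Since the genes were proposed with these results known, this is no independent support for a difference. Markers of other cell types also differed between these groups, though limma called none: all 5 mesothelial, all 5 mast cell and all 5 progenitor genes tested were lower with telmisartan, with medians of −1.13, −0.96 and −0.28. The mesothelial mean, with chow at 0, was −1.94 on telmisartan array 1 and −0.27 on array 2, against −0.32 and 0.10 with HFD. The mast cell mean was −0.47 and 0.66, against 0.56 and 1.31 with HFD. By contrast all 7 adipocyte genes were higher with telmisartan (median 0.14), and the other lists were mixed. Over all genes 5451 of 11232 were higher. The 5 mesothelial genes were also lower with candesartan than with HFD (median −0.19). The part of these cell types in the Ms4a8a difference was not tested.

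limma called 0 of the 7 members and 0% of all genes in this comparison, where 6.20% of genes and 1 of 7 members had an unadjusted p under 0.05. The members' median was 0.15, beside −0.01 over all genes. Of 7 members, 2 had arrays that did not overlap, Ms4a8a and Ms4a4c, both higher, against a background of 37.9% of genes not overlapping (18.5% higher). Ms4a4c was at 0.66 (95% CI −0.14 to 1.46, adjusted p 0.766, limma), and 0.21 without telmisartan array 2. On its dimmer probe set the telmisartan and HFD arrays overlapped.

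**Figure D5:**
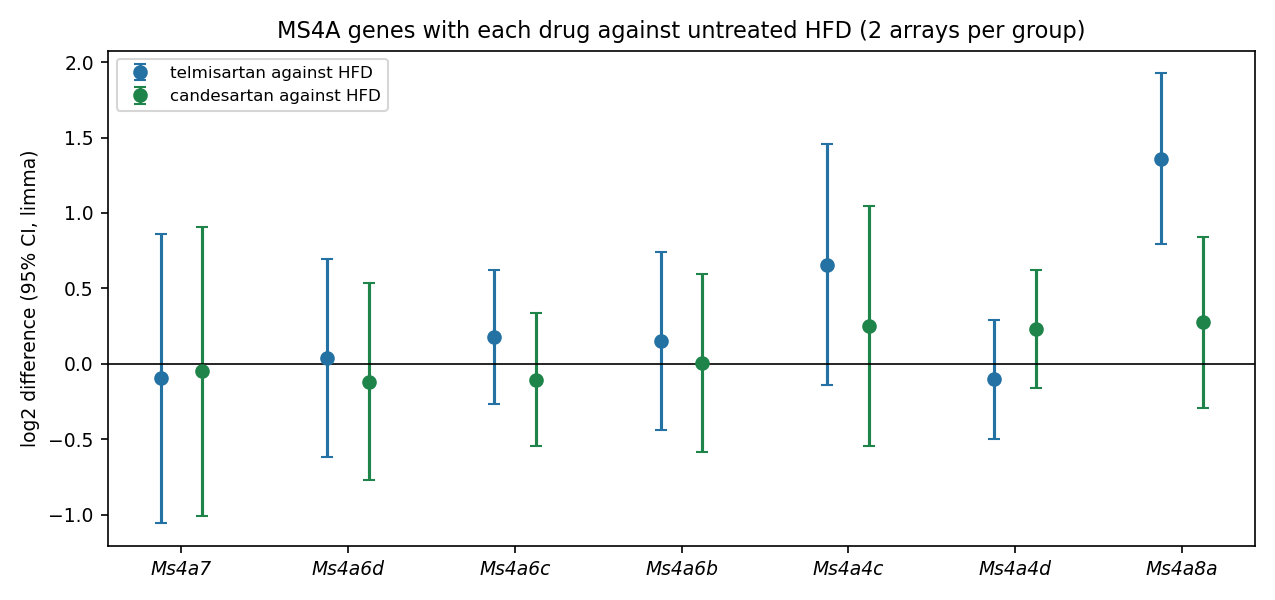
Log2 difference of each drug group from the untreated HFD group for 7 MS4A genes, with 95% confidence intervals from limma (2 arrays per group). The interval of Ms4a8a with telmisartan (0.79 to 1.93) is the only one that leaves out 0, before any adjustment for the number of genes.

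The other members with telmisartan were set apart by their 2 arrays. Array 2 exceeded array 1 by 1.61 on the log2 scale for Ms4a7, 1.02 for Ms4a6d, 0.92 for Ms4a6b, 0.90 for Ms4a4c and 0.58 for Ms4a6c. The pan macrophage mean differed by 0.75 between the same arrays and Adgre1, which encodes the macrophage marker F4/80, by 1.01, while the median size of the gap over all genes was 0.27. In contrast, array 2 minus array 1 was below 0 for Ms4a8a (−0.20), Ms4a4d (−0.25) and Retnla (−0.37). The part that macrophage content had in these gaps was not tested. The log2 difference from HFD was −0.10 for Ms4a7 (95% CI −1.06 to 0.86), 0.04 for Ms4a6d (−0.62 to 0.69), 0.18 for Ms4a6c (−0.26 to 0.62), 0.15 for Ms4a6b (−0.44 to 0.74) and −0.10 for Ms4a4d (−0.50 to 0.29). These intervals leave room for differences of either sign. Without telmisartan array 1 that of Ms4a7 was 0.71, and without array 2 that of Ms4a6d was −0.47.

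Candesartan against HFD asks the same of the second drug. Ms4a8a was 92.4 ± 5.96 with candesartan (SD, n = 2), against 78.1 ± 23.7 with HFD, a log2 difference of 0.28 (95% CI −0.29 to 0.84). limma called 0 of 7 members and 0% of all genes, and 0 of 7 members and 1.25% of genes had an unadjusted p under 0.05. The members' median was 0.0055, beside 0.0042 over all genes. Arrays did not overlap for 2 of 7 members, against 33.4% of genes (17.9% higher and 15.5% lower): Ms4a4d was higher at 0.23 (−0.16 to 0.62) and Ms4a6c lower at −0.10 (−0.55 to 0.34). Ms4a7 was at −0.05 (−1.01 to 0.91), Ms4a6d at −0.12 (−0.77 to 0.54), Ms4a6b at 0.0055 (−0.58 to 0.59) and Ms4a4c at 0.25 (−0.55 to 1.05).

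The 2 drugs had equal doses and durations, so their groups were compared directly, and this contrast tests whether the drugs differ from each other. Ms4a8a was 2.12-fold higher with telmisartan, with both telmisartan arrays above both candesartan arrays. The log2 difference was 1.08 (95% CI 0.52 to 1.65), with an unadjusted p of 0.00203 and an adjusted p of 0.924 by limma, so it did not pass. limma called 0 of 7 members and 0% of all genes, and 1 of 7 members and 4.90% of genes had an unadjusted p under 0.05. Arrays did not overlap for 2 of 7 members, against 32.2% of genes (15.6% higher and 16.6% lower): Ms4a8a was higher and Ms4a4d lower, at −0.34 (−0.73 to 0.06). The other 5 members overlapped between the drugs, at −0.05 (Ms4a7) to 0.41 (Ms4a4c).

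Other MS4A genes give the setting of the members. The list held 13 genes, of which 10 were on the array and 5 bright enough to be tested. In HFD against chow 2 of the 5 rose, 0 fell and 3 were not called, with a median log2 difference of 1.21, beside 5.15% of all genes called higher. Tmem176a and Tmem176b, related membrane proteins of dendritic cells and macrophages, were the 2 that rose, by 1.31 (adjusted p 0.000755, limma) and 0.83 (adjusted p 0.004). The call of Tmem176b was lost without HFD array 2. Tmem176a was 842 and 897 on chow, 2111 and 2195 with HFD, 2523 and 2457 with telmisartan and 1971 and 2061 with candesartan. The HFD arrays lay below both telmisartan arrays and above both candesartan arrays, although against HFD neither drug's difference passed (0.21 and −0.10, adjusted p 0.766 and 1), nor did that between the drugs (0.30, adjusted p 0.924).

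Ms4a1, the CD20 gene of B cells, was 48.7 and 49.7 on chow, 211 and 104 with HFD, 65.4 and 112 with telmisartan and 176 and 59.4 with candesartan. Its log2 difference of 1.59 in HFD had an adjusted p of 0.106 (limma). The mean of 5 B cell markers, set to 0 for chow, was 2.07 and 1.65 with HFD, 0.95 and 1.98 with telmisartan and 1.92 and 1.32 with candesartan. The summed signal over 8 B cell markers was 499 and 585 on chow and 1706 to 2825 on the high-fat arrays. Of the 5 markers tested, Cd22 (2.69) and Blnk (2.61) were called in HFD against chow. Cd79a (1.74), Cd79b (1.42) and Blk (0.85) were not.

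Ms4a4b, a T cell gene inside the run of members, was 51.7 and 139 on chow and 236 and 162 with HFD. It was 159 and 419 with telmisartan and 358 and 132 with candesartan. Its chow arrays lay far apart, and the log2 difference of 1.21 in HFD had an adjusted p of 0.286. The mean of 7 T and NK cell markers, with chow at 0, was 1.23 and 1.10 with HFD, 0.95 and 1.72 with telmisartan and 1.44 and 0.88 with candesartan. In HFD against chow Il7r (log2 difference 4.03) was the only one of the 7 called, the other 6 lay between 0.11 (Cd8a) and 1.22 (Cd3d), and the median was 0.78. Ms4a15 was 35.1 and 48.2 on chow and 73.3 and 92.1 with HFD (log2 difference 0.999, adjusted p 0.0816). The mast cell gene Ms4a2, the myeloid progenitor gene Ms4a3 and the genes Ms4a10, Ms4a13 and Ms4a18 were too dim to be tested, as were Ms4a19 and Ms4a20, which were not on the list. The brighter probe set of Ms4a2 gave 12.0 and 9.03 on chow and 26.1 and 30.6 with HFD. Neither drug comparison called any of the 5 genes.

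Partner genes are receptors, adaptors and regulators to which MS4A proteins have been linked. Of 15, 14 were on the array and 13 were tested. In HFD against chow 8 rose, 0 fell and 5 were not called, with a median of 1.49, beside 5.15% of all genes called higher and 2.95% lower. Fcgr1 is also in the pan macrophage list and Trem2 in the lipid-associated list. Of the pan macrophage genes 18 of 21 rose (median 1.31), so the rise is not particular to partner genes. Trem2, the lipid receptor whose shed form in humans varies with MS4A genotypes, rose by 4.45 (adjusted p 0.000536, limma), from 100.03 and 84.3 to 2033 and 1972, while a dim second probe set too low to be tested gave 24.0 and 12.9 against 7.32 and 13.7. Its adaptor Tyrobp rose by 1.89. Clec7a, which encodes dectin-1, a beta-glucan receptor that MS4A4A accompanies in macrophages, rose by 2.68 (adjusted p 0.00534), and its kinase Syk by 1.80. The Fc receptor genes Fcer1g, Fcgr1, Fcgr3 and Fcgr4 rose by 1.49, 1.88, 1.40 and 2.66. When each of the 8 arrays was left out in turn, Trem2, Tyrobp and Fcer1g were called every time, Syk was lost without HFD array 1, Clec7a without either HFD array, and Fcgr1 and Fcgr3 without either HFD array or without chow array 1. Fcgr4 was called only without either of the telmisartan arrays.

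The partners of Ms4a6d were not called. Vsig4 was 179 and 199 on chow and 311 and 233 with HFD (log2 difference 0.51, adjusted p 0.38), Nlrp3 was 34.4 and 35.6 against 55.6 and 53.2 (0.64, adjusted p 0.468), and Il1b was 42.1 and 52.5 against 39.3 and 49.8 (−0.09, adjusted p 0.901). Tnfrsf18, which encodes the receptor GITR of T cells, was at 0.87 (adjusted p 0.146, limma). With either drug limma called 0 of the 13, with 1 under an unadjusted p of 0.05 for telmisartan and 0 for candesartan. That 1 gene, named after its value was seen, was the inhibitory Fc receptor Fcgr2b, at 1149 and 872 with HFD and 1358 and 2066 with telmisartan (0.74, 95% CI 0.20 to 1.29, adjusted p 0.766).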

How the data were processed

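The authors deposited 1 linear signal intensity per probe set and array, made with the GeneChip Analysis Suite (per the series design text). Algorithm version and scaling are not given in these sources, presence calls were not used here, and no batch is stated. The trimmed mean (2% from each end) of the arrays ranged from 178 to 265. Signals were scaled to a common trimmed mean, set to at least 6.70 (the 20th percentile) and log2-transformed. Probe sets with a mean log2 signal at or above the 50th percentile (22519) and 1 gene symbol were kept, and the brightest per gene was used. Of the 45101 probe sets, 34958 had 1 gene symbol in the GEO platform annotation, 932 several and 9211 none. limma 3.58.1 (R 4.3.3; figures with Python 3.11.15) fitted 4 group means with an intensity trend over all 8 arrays, with Benjamini-Hochberg adjustment over all genes, two-sided, called under 0.05, and was tested on simulated data. An exact permutation test of 2 arrays against 2 cannot go below 0.333. Only 2 arrays per group limit the precision. The p-values compare each difference with the spread between mice within groups, pooled over the 4 groups and moderated across genes.

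Samples were grouped by title. Replicate numbers name separate mice, and no source pairs them across groups. The members, lists and tests were chosen with earlier results of these data known. Named were the members, the other MS4A genes on the array, the 3 genes most like each member, called partner genes with Trem2, Clec7a and Vsig4, and the reference genes Adgre1, Cd68, Itgax, Mrc1, Cd163 and Lyve1. Clone and provisional names were skipped in choosing the most alike genes.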

Additional observations from a re-analysis of the deposited data

How the results depend on the processing

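The 4 members called in HFD against chow were 0 without a filter on dim probe sets, where more genes are tested, and 0 to 5 when single arrays were left out. They numbered 3 to 5 under the other alternatives. Over all genes the count of 909 was 575 with median centring, 174 without a filter and 165 to 1611 without single arrays. In the 3 drug comparisons 0 members were called under every alternative; without a filter 4, 6 and 6 genes were called for telmisartan against HFD, candesartan against HFD and telmisartan against candesartan. No source pairs the mice by replicate number. The log2 differences between replicates correlated between groups at −0.04 to 0.21, which cannot decide whether the numbers carry a shared factor. With the replicate number as a block 5 members and 1280 genes were called in HFD against chow, the added member being Ms4a6b (adjusted p 0.0474), and 0 members elsewhere.

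Median centring moved the median of all genes to 0.26 (telmisartan against HFD), 0.16 (candesartan against HFD) and 0.11 (telmisartan against candesartan). Signs turned there for uncalled values near 0: Ms4a7 was at 0.18, 0.10 and 0.073 in these comparisons, Ms4a4d at 0.17 with telmisartan against HFD, and Ms4a6c at 0.048 and Ms4a6d at 0.034 with candesartan against HFD. Ms4a4c in HFD against chow was at −0.022 with quantile normalization and −0.028 with median centring. Ms4a6d in telmisartan against HFD was at −0.079 with its unmarked probe set. The cause was not tested.

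Leaving out single arrays gave these ranges where a sign turned. In HFD against chow, Ms4a4c ran from −0.093 to 0.24. In telmisartan against HFD, Ms4a4d ran from −0.23 to 0.021, Ms4a6b from −0.31 to 0.61, Ms4a6c from −0.11 to 0.47, Ms4a6d from −0.47 to 0.55 and Ms4a7 from −0.90 to 0.71. In candesartan against HFD, Ms4a4c ran from −0.024 to 0.53, Ms4a6b from −0.082 to 0.093, Ms4a6d from −0.27 to 0.034, Ms4a7 from −0.21 to 0.11 and Ms4a8a from −0.038 to 0.59. In telmisartan against candesartan, Ms4a4c ran from −0.045 to 0.86, Ms4a6b from −0.31 to 0.61, Ms4a6c from −0.0058 to 0.57, Ms4a6d from −0.36 to 0.67 and Ms4a7 from −0.85 to 0.76.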
